A study of Mus musculus with 12 samples.

Results

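Receptors of the Toll-like, interleukin-1 and tumor necrosis factor (TNF) families reach NF-κB through a shared relay of IRAK kinases, TRAF adaptors and MAP3 kinases. Besides Irak1, Irak4 and Traf6, 10 genes of this relay were examined by name: Irak2, Irak3, Tollip, Peli1, Traf1, Traf2, Traf3, Traf5, Map3k7 and Map3k14. All 10 were listed among the 46103 genes of the deposited tables, and 8 of them passed a minimum of 1 RPKM in 3 libraries and were tested, among 10072 such genes. RNA came from 12 libraries of 100 sorted cells each, with 3 libraries in each of 4 groups. The cells were BCR-ABL1+ CD27+ KSL cells (no lineage markers, with c-Kit and Sca1) of bone marrow and spleen of C57BL/6 CML-like mice. Donor marrow of fluorouracil-treated mice carrying a G0 marker (G0M) in Rosa26, switched on in blood cells by Vav1-Cre, had been transduced with BCR-ABL1 and given to lethally irradiated wild-type recipients. DP cells were G0M+ and SP cells were G0M- cells of vehicle-treated mice, and IMDP and IMSP cells were the same populations of mice that received imatinib, which blocks the kinase of BCR-ABL1, by oral gavage once daily. Per the study's reporting summary, the mice were females of 6 to 12 weeks. The number of mice behind a library is not given in the sources used here, so p values measure the spread between libraries, which may be technical. The imatinib libraries all came before the vehicle libraries in the numbering of the libraries, and these cannot be told apart as sources of a difference.

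The members act at different steps of the relay. Irak2 encodes a kinase-family member of the MyD88 signaling complex, and Irak3 encodes IRAK-M, an inhibitor of that complex found mainly in myeloid cells. Tollip encodes an adaptor that binds IRAK1 and restrains signaling, and Peli1 encodes Pellino1, a ubiquitin ligase that modifies IRAK proteins. Traf2 and Traf5 link TNF receptors to the canonical pathway, Traf1 is an adaptor induced by NF-κB, and Traf3 holds down NIK. Map3k7 encodes TAK1, the kinase that activates the IKK complex, and Map3k14 encodes NIK, the kinase that starts the noncanonical pathway.

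Among the members, Irak2 and Peli1 were called higher in G0M+ cells and Traf1 was higher there by an exact test. Tollip and Map3k7 were called lower in IMDP than in IMSP cells. Irak2 passed the minimum for testing through its G0M+ libraries, and without that minimum Irak2, Peli1 and Map3k7 were not called. Tollip and Map3k7 were not called after scaling every library to its median. The stretches before the RefSeq start sites of Irak2, Peli1, Traf1 and Map3k7 are printed to show the sequence that the genes higher in G0M+ cells have there and the match that Map3k7 holds (GRCm38.p6, 5′ to 3′ on the strand of the gene, bases inside the annotated gene left out). Capitals mark a match to the 10-base κB consensus, searched on both strands. The stretch of Tollip is not printed, since it lies inside the gene as GENCODE annotates it.
Irak2, chr6:113638217-113638466, plus strand: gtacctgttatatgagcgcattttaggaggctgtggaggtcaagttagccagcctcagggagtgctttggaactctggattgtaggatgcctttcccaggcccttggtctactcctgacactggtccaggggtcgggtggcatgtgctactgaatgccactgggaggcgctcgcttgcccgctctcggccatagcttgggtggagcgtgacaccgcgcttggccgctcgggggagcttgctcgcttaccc
Peli1, chr11:21091074-21091290, plus strand: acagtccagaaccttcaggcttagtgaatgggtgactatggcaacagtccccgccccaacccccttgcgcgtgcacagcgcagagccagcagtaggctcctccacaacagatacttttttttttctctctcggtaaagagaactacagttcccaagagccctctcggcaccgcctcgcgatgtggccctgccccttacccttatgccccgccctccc
Traf1, chr2:34961773-34962022, minus strand: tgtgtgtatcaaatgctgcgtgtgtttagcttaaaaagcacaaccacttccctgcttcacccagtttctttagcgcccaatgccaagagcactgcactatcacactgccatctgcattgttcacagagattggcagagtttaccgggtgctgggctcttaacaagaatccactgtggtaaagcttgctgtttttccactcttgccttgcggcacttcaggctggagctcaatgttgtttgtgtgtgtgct
Map3k7, chr4:31963857-31964096, plus strand: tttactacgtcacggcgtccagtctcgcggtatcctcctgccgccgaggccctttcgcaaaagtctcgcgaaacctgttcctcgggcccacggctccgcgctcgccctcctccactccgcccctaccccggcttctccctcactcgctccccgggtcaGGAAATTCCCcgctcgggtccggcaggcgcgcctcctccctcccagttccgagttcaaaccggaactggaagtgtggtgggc

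All 10 members had a promoter in the RefSeq table, with 11 start sites in all. A match to the κB consensus within the 250 bases before the start was found for 2 of the 11, against 7.25% of the 32817 promoters of the table. Map3k7 held GGAAATTCCC beginning 92 bases before its start, and Traf3 held GGGGATTTCC on chr12:111166360-111166369, directly before its start. In the windows of Irak2, Peli1, Traf1 and Tollip these letters were not found, so the genes called lower in IMDP cells differed in this respect.

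The labels were checked first on marker genes. Mki67, a proliferation gene, was 3.83-fold lower in DP than in SP cells and 7.46-fold lower in IMDP than in IMSP cells (adjusted p = 0.00263 and 3.6e-05). Kit, Ly6a (Sca1) and Cd27, whose proteins were used in the sort, were present in every group, with a summed level of 33.4 to 78.9 RPKM. Ly6a was called higher in IMDP than in IMSP cells (log2 fold change 1.56, adjusted p = 0.017 in limma). It was also called higher in G0M+ than in G0M- cells averaged over treatments (1.42, adjusted p = 0.00544). Kit and Cd27 were not called in these contrasts, nor was Ly6a in DP against SP cells (adjusted p = 0.171). Cd34, a stem and progenitor cell gene that was not part of this sort, read 29.0 to 66.9 RPKM. The denominators of the deposited RPKM came to between 11.37 and 20.57 M reads per library. Of these, 25.9% to 31.1% fell on listed features in IMDP and 32.6% to 37.1% in IMSP cells. The median log2 fold change over all tested genes was -0.25 when IMDP was set against IMSP and -0.02 when DP was set against SP cells. Imatinib against vehicle gave a median of -0.17 in G0M+ and 0.08 in G0M- cells, and G0M+ against G0M- averaged over treatments gave -0.13. A log2 fold change of a member is therefore given together with the same value less this median where the median is larger than 0.1 in size.

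On the scale of RPKM, which divides by transcript length, the most abundant member was Map3k7 with a mean of 8.33 ± 1.38 RPKM (SD, n = 12 libraries of 4 groups). Tollip followed with 7.48 ± 1.42, and the means of these genes lay closer together than their spread. Traf3 reached 5.69 ± 0.607, Peli1 4.28 ± 1.09, Traf2 3.24 ± 0.474 and Irak3 2.98 ± 0.898 RPKM. Map3k14 with 1.47 ± 0.41 and Irak2 with 1.16 ± 0.369 RPKM stood close to the minimum for testing, and Traf5 with 0.521 ± 0.172 and Traf1 with 0.385 ± 0.255 RPKM lay below it. The last 4 genes rest on few reads, with 54 to 137 reads per library for Map3k14, 27 to 104 for Irak2, 6 to 93 for Traf1 and 4 to 31 for Traf5. PCR copies were not marked, so these numbers bound counting error only.

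**Figure D1:**
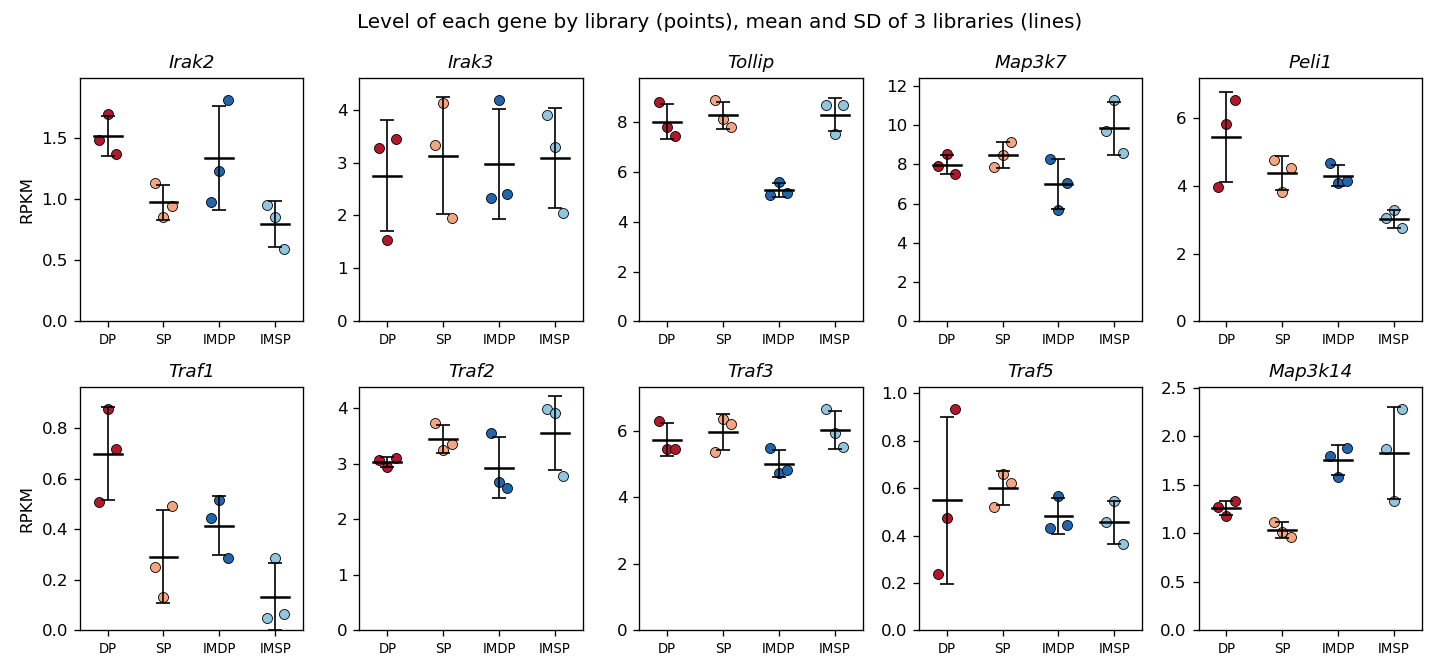
Level of the 10 genes in RPKM (vertical axes from 0) in the DP, SP, IMDP and IMSP libraries (points), with the mean and SD of the 3 libraries of a group as lines. Tollip in the 3 IMDP libraries lies between 5.07 and 5.62 RPKM, below all 9 other libraries, while the Irak3 libraries of the 4 groups overlap.

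Irak2 was higher in G0M+ than in G0M- cells under both treatments. It read 1.485, 1.69 and 1.37 RPKM in the DP libraries against 1.13, 0.850 and 0.940 RPKM in the SP libraries. Under imatinib it read 0.980, 1.23 and 1.81 RPKM in IMDP against 0.955, 0.855 and 0.5895 RPKM in IMSP cells. In neither pair of groups did the libraries overlap, although the lowest IMDP library stood next to the highest IMSP library. Averaged over treatments the log2 fold change was 0.63 ± 0.20 (SE; 0.76 above the median of all genes), with an adjusted p of 0.0365 in limma and a 95% interval of 0.20 to 1.06. Within DP against SP the adjusted p was 0.391 and within IMDP against IMSP it was 0.101. The call was lost when any one of DP libraries 1 to 3, IMDP libraries 2 and 3, IMSP library 3 or SP libraries 2 and 3 was left out, with adjusted p up to 0.0908, and it held with neighbouring library numbers as a block (adjusted p = 0.0334) but not with a block for the replicate number (adjusted p = 0.054). Irak2 reached the minimum of 1 RPKM in 5 of the 6 G0M+ libraries and in 1 of the 6 G0M- libraries. It was thus tested because of its level in the group where it was higher, and without a filter on low values it was not called (adjusted p = 0.0598).

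Peli1 had the same direction as Irak2. The DP libraries read 3.975, 5.83 and 6.52 RPKM and the SP libraries 4.77, 3.81 and 4.52 RPKM, so these groups overlapped. The IMDP libraries, at 4.665, 4.09 and 4.15 RPKM, all lay above the IMSP libraries at 3.05, 3.28 and 2.745 RPKM. The log2 fold change of G0M+ against G0M- cells averaged over treatments was 0.39 ± 0.13 (SE; 0.53 above the median), with an adjusted p of 0.043 in limma. The call held without DP library 1 (adjusted p = 0.00796) or IMSP library 2 (adjusted p = 0.0426) and was lost without any one of the 10 other libraries, with adjusted p up to 0.108. With neighbouring library numbers as a block the adjusted p was 0.00856, and with the replicate block it was 0.0584. Without a filter on low values it was 0.0656, and without a variance trend it was 0.0502. In IMDP against IMSP cells alone the log2 fold change was 0.49 ± 0.18 (0.75 above the median), with an adjusted p of 0.0649. With neighbouring library numbers as a block, which in these groups is the pairing of the replicate numbers, the adjusted p of this contrast was 0.0149.

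Traf1 was the member with the largest ratio between the populations, at levels below the minimum for testing. It read 0.508, 0.875 and 0.7165 RPKM in DP against 0.2505, 0.130 and 0.492 RPKM in SP libraries, and 0.4445, 0.515 and 0.287 RPKM in IMDP against 0.0503, 0.285 and 0.0655 RPKM in IMSP libraries. Neither pair of groups overlapped, but the margins between the closest libraries were small, at 0.287 against 0.285 RPKM under imatinib. The mean of log2(RPKM + 0.1) was -0.67 in the 6 G0M+ and -1.85 in the 6 G0M- libraries, a difference of 1.18. A two-sided exact permutation test over 924 splits gave p = 0.00866, where 0.00216 is the smallest possible. The splits took no account of the likeness between libraries of neighbouring numbers. Traf1 and Traf5 were the pair of genes tested in this way. How many other genes below the minimum separate as Traf1 does was not counted. Among tested genes 26.3% were called between these populations averaged over treatments. The 2 lowest IMSP libraries held 6 reads each, so the size of the ratio is poorly determined.

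Tollip went the other way, and its lowest values were in IMDP cells. It read 5.07, 5.62 and 5.15 RPKM in the IMDP libraries, against 8.71, 7.54 and 8.70 in IMSP, 8.82, 7.815 and 7.47 in DP and 8.885, 8.16 and 7.81 RPKM in SP libraries. Every IMDP library was thus below all other libraries, whereas DP, SP and IMSP cells overlapped. Of all tested genes, 32.8% had every IMDP library below the IMSP libraries, and 19% had every IMDP library below the DP libraries. The share below all other libraries at once was not counted. In IMDP against IMSP cells the log2 fold change was -0.64 ± 0.13 (SE; -0.39 relative to the median), with an adjusted p of 0.00527 in limma and a 95% interval of -0.92 to -0.37. The call held when each library was left out in turn, and it was lost after scaling every library to its median (log2 fold change -0.37, adjusted p = 0.0739). Set against DP cells, IMDP cells had a log2 fold change of -0.59 ± 0.13 (-0.42 relative to the median) with an adjusted p of 0.0592. This value was -0.05 for DP against SP and 0.0045 for IMSP against SP cells. The difference between the population effects under the 2 treatments was -0.60 ± 0.18 (SE), or -0.35 relative to its median of -0.25 over all genes. It was not called, with an adjusted p of 0.534 in limma (0.00562 before adjustment). Averaged over treatments, Tollip was lower in G0M+ cells by limma (log2 fold change -0.34, or -0.21 relative to the median, adjusted p = 0.0162), a call that was also lost after median scaling (adjusted p = 0.153).

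Map3k7 was lower in IMDP than in IMSP cells. The IMDP libraries read 8.28, 5.69 and 7.035 RPKM and the IMSP libraries 9.69, 11.3 and 8.58 RPKM, without overlap. The DP libraries read 7.93, 8.51 and 7.52 RPKM and the SP libraries 7.85, 8.48 and 9.16 RPKM, and these overlapped. The log2 fold change of IMDP against IMSP cells was -0.49 ± 0.16 (SE; -0.24 relative to the median), with an adjusted p of 0.04 in limma. With neighbouring library numbers as a block the adjusted p was 0.0254. With this block Map3k7 was also called lower in G0M+ than in G0M- cells averaged over treatments (log2 fold change -0.29, or -0.16 relative to the median, adjusted p = 0.049). The call in IMDP against IMSP cells was lost after median scaling (log2 fold change -0.22, adjusted p = 0.268), with the replicate block (adjusted p = 0.0529), with only the 2 groups in the fit (adjusted p = 0.113), with no filter on low values (adjusted p = 0.0514), or without any one of DP libraries 2 and 3, IMDP libraries 2 and 3, IMSP libraries 1 and 2 or SP library 1 (adjusted p up to 0.151).

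These counts were read against all tested genes. Of the 8 tested members, 2 were called in IMDP against IMSP cells, both lower, where 25.6% of all tested genes were called, 2.37% higher and 23.3% lower. In G0M+ against G0M- cells averaged over treatments 3 members were called, 2 higher and 1 lower, where 26.3% of all genes were called, 5.32% higher and 21% lower. The median log2 fold change of the 8 members was -0.16 in IMDP against IMSP cells and -0.14 in G0M+ against G0M- cells, beside -0.25 and -0.13 for all genes. Since Irak2 entered through its G0M+ libraries, these counts are a description. The shares over all genes rested on single libraries as well. In IMDP against IMSP cells 8.98% of genes were called without IMSP library 1, 11.9% without IMDP library 2 and 15.6% without IMDP library 3, and 44.1% with neighbouring library numbers as a block. Averaged over treatments these shares were 15.9% without DP library 3, 16% without IMSP library 1, 17.4% without DP library 2 and 46.9% with that block. No member was called in DP against SP by limma or limma-voom, and 0 of 8 had an unadjusted p under 0.05, where 2.26% of all genes were called. This share was 1.25% to 1.42% without any one of DP libraries 2 and 3 or SP libraries 1 and 2, and 9.73% with the library-number block. The libraries of DP and SP cells did not overlap for 3 of the 8 members: Irak2 and Map3k14 were higher in DP cells, as were 9.68% of all genes, and Traf2 was lower, as were 12.7% of all genes. IMDP and IMSP libraries did not overlap for 5 of the 8: Irak2 and Peli1 were higher, as were 6.21% of all genes, and Tollip, Traf3 and Map3k7 were lower, as were 32.8% of all genes, although the log2 fold change of Traf3 was 0.01 after median scaling.

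**Figure D2:**
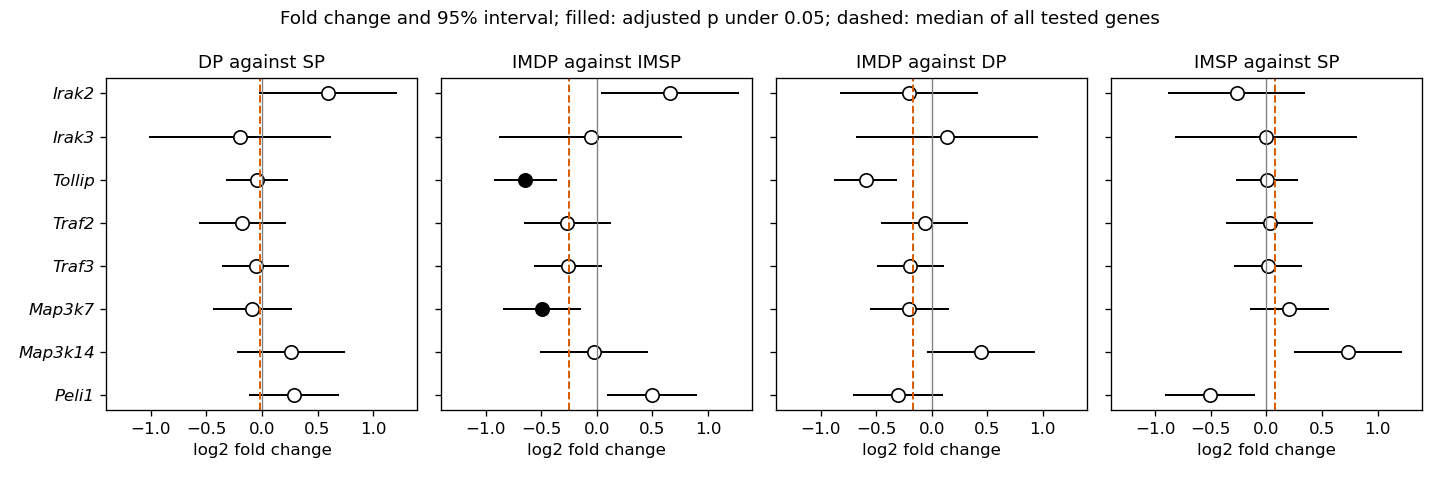
Log2 fold change (horizontal axes) with its 95% interval for the 8 tested genes in the 4 pairwise comparisons, with filled points for an adjusted p under 0.05 and a dashed line for the median of all tested genes. Tollip and Map3k7 are called in IMDP against IMSP cells at -0.64 and -0.49, to the left of the median of -0.25, and no gene is called in the other panels.

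The direction of the calls rested on the scaling of the libraries. After median scaling 40.7% of the genes called in IMDP against IMSP cells were higher, compared with 9.26% on the deposited scale, and for G0M+ against G0M- cells these shares were 47.3% and 20.2%. In IMDP against IMSP cells the scaled values called Irak2 (log2 fold change 0.92, adjusted p = 0.0461) and Peli1 (0.77, adjusted p = 0.0223), and neither Tollip nor Map3k7. Irak2, Peli1, Tollip and Map3k7 kept their direction on both scales. Irak3 (-0.06 and 0.21), Traf2 (-0.27 and 0.0023), Traf3 (-0.26 and 0.01) and Map3k14 (-0.03 and 0.24) changed sign in this contrast. Scaling moved the median of all genes there from -0.25 to 0.02, so small negative values changed sign with it. Averaged over treatments, Irak2 and Peli1 were called higher in G0M+ cells on both scales (adjusted p = 0.0179 and 0.0149 after scaling). Both scales used the same filter, which Irak2 passed through its G0M+ libraries. Without that filter neither gene was called on the deposited scale (adjusted p = 0.0598 and 0.0656).

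**Figure D3:**
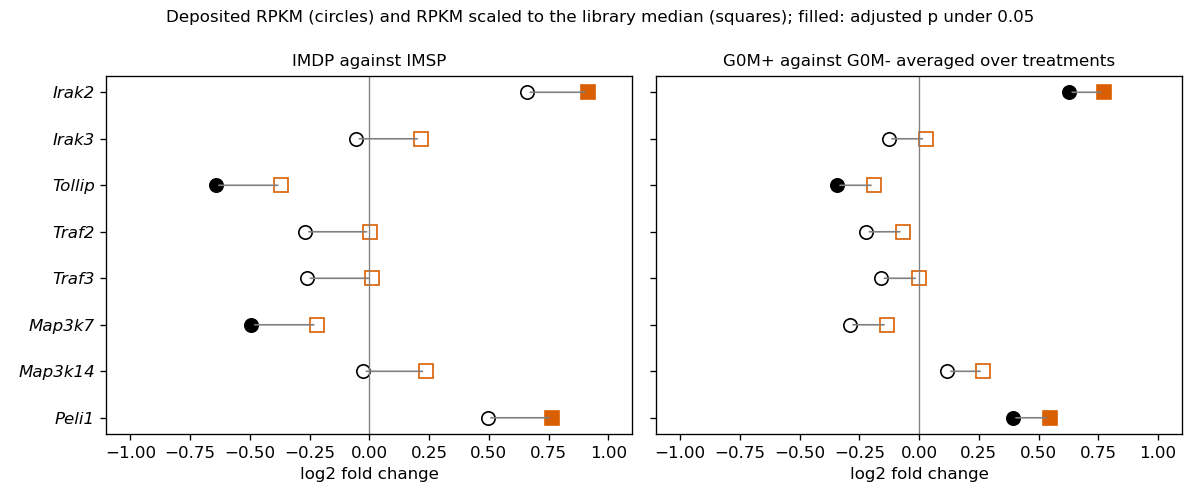
Log2 fold change (horizontal axes) of the 8 tested genes from deposited RPKM (circles) and from RPKM scaled to the median of each library (squares), filled for an adjusted p under 0.05. Irak2 and Peli1 move to 0.92 and 0.77 in IMDP against IMSP cells and are filled there, while Tollip and Map3k7 move to -0.37 and -0.22 and are open.

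Genes of other cell types were also read in each group, without a test, and some of the ranges overlapped. The summed level of 8 mast cell and basophil genes was 76.3 to 326.2 RPKM in DP, 14.9 to 180.7 in IMDP, 10.5 to 23.0 in SP and 7.92 to 24.4 RPKM in IMSP cells, with Cma1 and Tpsb2 at 0 in both G0M- groups. The sum of 8 macrophage genes was 5.99 to 16.2 RPKM in DP, 3.80 to 8.84 in SP, 18.0 to 21.2 in IMDP and 6.86 to 38.2 RPKM in IMSP cells. The highest sum was thus in an IMSP library, although C1qa, C1qb and C1qc of this list were at 0 in SP and IMSP cells. The sum of 5 erythroid genes was 194.1 to 245.3 RPKM in DP and 49.3 to 144.1 RPKM in SP libraries. Under imatinib it was 56.8 to 219.9 RPKM in IMDP and 9.43 to 71.6 RPKM in IMSP libraries. For 6 neutrophil genes the sum was 45.6 to 1055 RPKM in DP and 283.9 to 2007 RPKM in SP libraries. Under imatinib this sum was 49.9 to 203.5 RPKM in IMDP and 369.9 to 1604 RPKM in IMSP libraries. The 6 T and B cell genes summed to 1.38 to 4.48 RPKM, with Ms4a1 at 0 in every library. The part of these cells in the levels of Irak2, Peli1, Traf1 and Tollip was not tested. In bulk RNA, fewer cells that express a gene and less RNA per cell cannot be told apart.

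No tested member was called for imatinib against vehicle by limma or limma-voom, in either population or averaged over both, and 1 of 8 had an unadjusted p under 0.05 in IMDP against DP, 2 in IMSP against SP and 3 averaged over both. In IMDP against DP cells 0.367% of all genes were called, or 37 genes. This number was 218 without IMDP library 1, 0 to 24 without any one of the other libraries except DP library 3, where it was 29, and 0 with only the 2 groups in the fit. In IMSP against SP cells 0% were called by limma or by limma-voom on the recovered reads, with 845 and 879 genes at an unadjusted p under 0.05. Averaged over populations 0.854% of genes were called, or 86 genes, and 13 to 143 when 1 library was left out (13 without DP library 2, 143 without IMSP library 2). For the difference between the populations in their response 0% were called by limma or limma-voom, with 937 and 947 genes at an unadjusted p under 0.05, and 1 gene was called without IMDP library 2. Map3k14 came nearest to a call averaged over populations. It read 1.27, 1.18 and 1.33 RPKM in DP, 1.80, 1.58 and 1.88 in IMDP, 1.12, 1.02 and 0.961 in SP and 1.87, 1.33 and 2.275 RPKM in IMSP libraries. In each population the imatinib libraries lay above the vehicle libraries without overlap, as they did for 4.58% of all genes in IMDP against DP and for 11.1% in IMSP against SP cells. Its log2 fold change averaged over populations was 0.59 ± 0.15 (SE), with a 95% interval of 0.25 to 0.93 and an adjusted p of 0.0876. Without IMSP library 2 the adjusted p was 0.0449.

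Peli1 was lower with imatinib in both populations and Tollip in G0M+ cells, without a call. In IMDP against DP cells Peli1 had a log2 fold change of -0.305 ± 0.18 (SE; -0.13 relative to the median), with overlapping libraries (adjusted p = 0.368 in limma). Averaged over populations it was -0.41 ± 0.13 (SE; adjusted p = 0.135). Peli1 in IMSP against SP cells had a log2 fold change of -0.51 ± 0.18 (SE; adjusted p = 0.487), without overlap, as for 2.72% of all genes in that direction. Tollip in IMDP against DP cells did not overlap either, as 19% of all genes did not in that direction. For Irak2 the interval of imatinib against vehicle averaged over populations was -0.67 to 0.19, and for Map3k7 it was -0.24 to 0.25.

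Irak3, Traf2 and Traf3 were called in no comparison. Irak3 read 3.28, 1.54 and 3.44 RPKM in DP, 3.32, 4.13 and 1.95 in SP, 2.33, 4.17 and 2.405 in IMDP and 3.91, 3.30 and 2.05 RPKM in IMSP libraries. All groups overlapped, and each held a library at least 1 RPKM away from another of its own. The interval of its log2 fold change averaged over treatments was -0.70 to 0.45, wide enough to hold changes as large as those of Peli1. Exons of Irak3 overlap those of Tmbim4 on the other strand, and the library kit did not mark strand, so reads of the overlap cannot be assigned to one gene. Exons of Irak2 likewise overlap those of Gm43963 on the other strand, and those of Map3k14 overlap 1700028N14Rik on the same strand. Exons of Traf5 overlap those of Mir3473c on the same strand and of Gm26879 on the other. Traf2 read 3.06, 2.94 and 3.11 RPKM in DP, 3.735, 3.25 and 3.35 in SP, 3.56, 2.67 and 2.56 in IMDP and 3.97, 3.90 and 2.78 RPKM in IMSP libraries. Its interval for G0M+ against G0M- cells was -0.49 to 0.05. Traf3 read 6.31, 5.45 and 5.44 RPKM in DP, 5.35, 6.35 and 6.22 in SP, 5.48, 4.72 and 4.83 in IMDP and 6.64, 5.93 and 5.52 RPKM in IMSP libraries, with an interval of -0.37 to 0.05 in the same comparison. Its IMDP libraries ended just under the lowest IMSP library and overlapped with the DP libraries.

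Traf5 could not be compared between groups. It was the only member listed as numbered copies, and in each library all of its reads fell on one of the 2 copies. The first copy held them in DP libraries 1 and 2, IMDP library 1 and SP libraries 2 and 3, and the second in the other 7 libraries. The read steps imply a length of 1075 bases or a multiple of it for the first copy and 2249 bases for the second, so the summed level of 0.238 to 0.932 RPKM sets copies of different length side by side. The same held for 32 of 508 genes with 2 numbered copies that were each above 0 in some library. The exact permutation test gave a difference of -0.09 and p = 0.725 for Traf5, and no direction is drawn from it.

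The other genes of the relay were described by a list of 39, of which 38 were tested. In IMDP against IMSP cells 5 were called lower and 1 higher, with a median log2 fold change of -0.15 over the list, beside 23.3% of all genes called lower, 2.37% called higher and a median of -0.25. Those with the smallest adjusted p were Ube2v1 (log2 fold change -0.66, adjusted p = 0.00555) and Ube2n (-0.63, adjusted p = 0.0189), which together build the lysine-linked ubiquitin chains that TRAF6 uses, and Tank (-0.69, adjusted p = 0.0113), a TRAF-binding inhibitor. Ube2v1 read 13.7, 12.5 and 13.0 RPKM in IMDP against 22.3, 19.5 and 20.5 RPKM in IMSP libraries, and 21.0, 16.65 and 18.2 in DP against 20.9, 23.7 and 19.2 RPKM in SP libraries. As for Tollip, the IMDP libraries were the lowest of all, a pattern whose share over all genes was not counted. Sigirr, an inhibitory receptor of the interleukin-1 family, was higher (0.67, adjusted p = 0.0325), at 8.15, 7.19 and 7.19 RPKM in IMDP against 4.98, 5.67 and 3.58 RPKM in IMSP libraries. Ube2v1 and Sigirr were called with the same direction after median scaling (adjusted p = 0.0372 and 0.00717). Ube2n and Tank were not (adjusted p = 0.0726 and 0.0946), nor were the other genes of the list called lower. Cyld (log2 fold change 0.47, adjusted p = 0.0196), Tnip2 (0.62, adjusted p = 0.0368) and Traf4 (0.83, adjusted p = 0.0335) were newly called higher. After scaling, more genes of the list were thus called higher than lower. Ube2v1 and Tank were called without each library in turn, Ube2n was lost without IMDP library 2 or 3 or IMSP library 1 (adjusted p up to 0.0762), and Sigirr without any IMDP library or IMSP library 1 or 3 (adjusted p up to 0.101).

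By their roles, the list held 9 adaptors and first kinases, of which 2 were called lower and 1 higher in IMDP against IMSP cells. Of 8 TAK1 partners and IKK components none was called, and of 8 tested ubiquitin enzymes 2 were lower. Of 7 inhibitors 1 was lower, and of 6 genes on the TNF receptor side none was called. Over all genes the shares were the same 23.3% lower and 2.37% higher. These counts hold on the deposited scale. After median scaling Ube2n and the inhibitor Tank were not called. The inhibitors Cyld and Tnip2, and Traf4 on the TNF receptor side, were called higher on that scale. In G0M+ against G0M- cells averaged over treatments 4 genes of the list were called lower and 2 higher, where 21% of all genes were called lower and 5.32% higher. Ube2v1 (log2 fold change -0.43, adjusted p = 0.00743), Fadd, an adaptor of death receptors (-0.56, adjusted p = 0.019), and Ube2n (-0.44, adjusted p = 0.0199) were lower. Sigirr (0.54, adjusted p = 0.0199) and Traf4, a TRAF family member (0.52, adjusted p = 0.0266), were higher. After median scaling these genes stayed called and Tank was lost (adjusted p = 0.199). Cyld (0.40, adjusted p = 0.00586) and Tnip2 (0.405, adjusted p = 0.0374) were newly called higher on that scale. Leaving out 1 library ended the calls of Traf4 (DP 2 or 3, IMDP 3, IMSP 1, SP 1 or SP 2, adjusted p up to 0.0681), Sigirr (DP 2 or 3, up to 0.0537), Fadd (IMSP 1, 0.0508) and Ube2n (DP 2, 0.0541), and not that of Ube2v1. No gene of the list was called by limma or limma-voom in DP against SP, IMDP against DP or IMSP against SP cells, where 4, 6 and 2 of the 38 had an unadjusted p under 0.05.

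Averaged over populations, the call for imatinib against vehicle in the list was Tnfaip3, which encodes the ubiquitin-editing inhibitor A20. It read 40.5, 76.0 and 57.7 RPKM in DP and 37.0, 21.4 and 51.4 in SP libraries, against 9.545, 17.1 and 14.3 in IMDP and 3.73, 15.7 and 10.35 RPKM in IMSP libraries. The vehicle and imatinib libraries did not overlap in either population. In that direction this held for 19% of all genes in IMDP against DP and for 2.72% in IMSP against SP cells. The log2 fold change was -2.04 ± 0.33 (SE, adjusted p = 0.021 in limma), beside no called member in the same contrast. The call was lost without any one of DP library 2, IMDP library 1, IMDP library 3, SP library 1 or SP library 3, with adjusted p up to 0.0753.

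**Figure D4:**
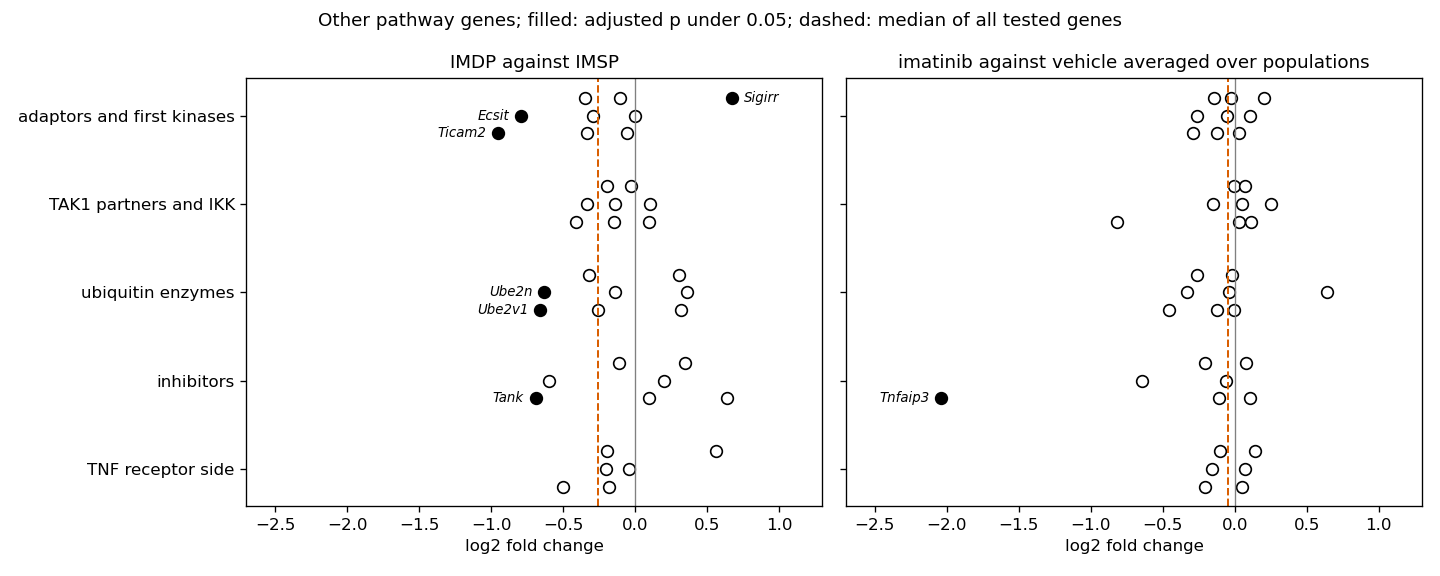
Log2 fold change (horizontal axes) of the 38 other genes of the relay in 5 groups by role, for IMDP against IMSP cells and for imatinib against vehicle averaged over populations, with filled and named points for an adjusted p under 0.05 and a dashed line for the median of all genes. Called genes in the left panel lie below 0 except Sigirr at 0.67, and Tnfaip3 at -2.04 stands alone in the right panel.

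The tested genes whose log2(RPKM + 0.1) followed each called member most closely over the 12 libraries were listed by Pearson's r, with no test, since the libraries share the 4 groups. For Tollip these were Psmb7 (r = 0.962), Med8 (0.955) and Psmd4 (0.949), and for Map3k7 they were Oxsr1 (0.952), Dhx36 (0.928) and Zfp955a (0.926). For Peli1 they were Vgll4 (0.928), Cd74 (0.926) and Sik1 (0.92). The closest genes to Irak2 reached lower values, with Tanc2 at 0.882, Emid1 at 0.86 and Ctla2a at 0.858.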

How the data were processed

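RNA of 12 libraries was analysed from the RPKM values that the authors deposited, with 48737 features per library. The authors built unstranded libraries with not-so-random primers and Nextera XT, mapped reads to GRCm38, with CLC Genomics Workbench in their methods and HISAT2 with featureCounts in their reporting summary, and normalized the values. edgeR is named in the submitters' processing notes. Whole reads were recovered from the RPKM steps for 17735 of 17735 features above 0, within 0.02 reads. A feature above 0 in a single library passes this step by construction. The implied lengths were whole within 0.05 bases for 97.5% of these features. Numbered copies (4568 features, 1934 genes) were summed. Genes with at least 1 RPKM in 3 libraries were tested with limma 3.58.1 in R 4.3.3 on log2(RPKM + 0.1), so fold changes of low genes are understated, with 4 group means, a moderated variance with trend and Benjamini-Hochberg adjustment at 0.05 over 10072 genes. Members below the minimum were compared by exact permutation. The fit was checked on simulated data. Deviations from group means correlated between IMDP and IMSP libraries of the same replicate number (r = 0.429 to 0.655), not between DP and SP libraries (-0.298 to -0.098). Neighbouring library numbers correlated in all 6 pairs (0.429 to 0.655). Alternatives changed the filter, pseudocount, groups fitted, block, scaling, variance, use of copies and the library left out. Positions come from GENCODE M21, sequences from RefSeq. All members are named. Of the list of other genes, up to 3 per contrast and direction with the smallest adjusted p are named, and those newly called after median scaling. For each called member the 3 most similar genes are named. The members, lists and tests were chosen with earlier results of these data known. Python 3.11.15 and matplotlib 3.10.9 were used for tables and plots.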

Additional observations from a re-analysis of the deposited data

How the results depend on the processing

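In IMDP against IMSP cells 1 member in place of 2 was called without a filter on low values, with only the 2 groups in the fit, with the replicate block and without a variance trend, and 1 to 3 when 1 library was left out. Of the pathway genes, 3 in place of 6 were called without the filter and with only the 2 groups, 11 with neighbouring library numbers as a block, and 2 to 7 when 1 library was left out. In G0M+ against G0M- cells averaged over treatments 1 member in place of 3 was called with the replicate block and with a filter of 5 RPKM, which left 3 members tested, and 1 to 3 when 1 library was left out. The library-number block called 4 members there, Map3k7 in addition, and 3 in IMDP against IMSP, Peli1 in addition. Pathway genes called in that contrast averaged over treatments numbered 15 in place of 6 with the library-number block and 2 to 8 when 1 library was left out. In DP against SP the library-number block called 1 pathway gene in place of 0. In IMDP against DP the filter of 5 RPKM called 1 member and 1 pathway gene in place of 0. For imatinib against vehicle it called 2 pathway genes in place of 1, and leaving out 1 library gave 0 to 1 members and 0 to 1 pathway genes. Of 1235 values of single members under alternatives, 37 were no longer called, 8 were newly called and 0 reversed a call. The cause was not tested, except that the filters change how many genes are tested. Depth limits Traf5 and Traf1 most, since counting error alone is large at 4 to 31 and 6 to 93 reads per library.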
